A study of Mus musculus with 21 samples.

Results

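The insulin-like growth factor (IGF) binding proteins and receptors are described here through 10 genes of a table of 23713 mouse genes. They are the binding proteins Igfbp2, Igfbp3, Igfbp4, Igfbp5, Igfbp6 and Igfbp7, the ligand Igf2, and the receptors Igf1r, Igf2r and Insr. They were chosen by gene name from the IGF pathway, with results of the same tumor against control comparisons already known, and Igfbp2 had been seen to be lower in tumors. The values of Igfbp2 in BCC against Con, and the differences between models built on them, are therefore given as a description with no test. For the other members the p-values compare a difference with the spread between libraries. The adjusted p-values depend as well on how many genes change in that comparison, and they support nothing about the family. RNA was sequenced from keratinocytes of mouse tail epidermis in 21 libraries, from 3 models of basal cell carcinoma (BCC, a skin tumor driven by Hedgehog signalling). Each model had 3 control libraries (Con, epidermis without tumor) and 4 BCC libraries. The models were SmoM2, sampled 29 days after tumor induction (batch A), Gnas-eKO, sampled at 42 days (batch B), and PKI, sampled at 57 days (batch C). Model, day and batch changed together, so they cannot be told apart between models, and each comparison of BCC with Con was made within a model. SmoM2 is an activated form of the Hedgehog transducer Smoothened, Gnas encodes the alpha subunit of the G protein that stimulates cyclic AMP production, and PKI is the name of a peptide inhibitor of protein kinase A. The labels do not give the age or strain of the mice, the promoter or Cre that drives each allele, the agent used for induction, or the genotype of the controls.

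Insulin-like growth factors signal through the receptor tyrosine kinase Igf1r, and insulin through its close relative Insr. Igf2r is the cation-independent mannose 6-phosphate receptor, which takes up IGF2 and carries it to lysosomes. The binding proteins hold the growth factors outside the cell, where they prolong their life and either limit or hand over their access to the receptor, and proteases release the ligand again. Igfbp7 differs from the others in binding IGFs weakly. In skin, IGF1 is made mainly by dermal cells and acts on the keratinocytes above them.

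The libraries held between 16645858 and 22251132 estimated counts each. Levels are given as CPM, a gene's share of a library's counts scaled to a common total, and, where genes are compared with each other, as CPM per kilobase of merged exons. All 5 basal keratinocyte markers on the list used (Krt5, Krt14, Trp63, Itga6, Col17a1) were above 1 CPM in every library. Gnas lay at 172 to 178 CPM in the Gnas-eKO Con libraries and at 51.1 to 115 CPM in the Gnas-eKO BCC libraries, without overlap, and Smo lay at 93.6 to 110 CPM in SmoM2 Con against 283 to 312 CPM in SmoM2 BCC. The Hedgehog target Ptch1 was higher in every BCC library than in any Con library of its model. Gli1, another Hedgehog target, did so in SmoM2 (5.05 to 16.5 CPM in Con, 252 to 294 CPM in BCC) and PKI (9.47 to 14.2 against 66.1 to 103 CPM), while in Gnas-eKO its BCC values of 9.64 to 281 CPM overlapped the Con values of 4.75 to 9.96 CPM. On the first principal component Gnas-eKO BCC replicate 2 scored -15.1. The other Gnas-eKO BCC libraries scored 44.5 to 45.6 and the Gnas-eKO Con libraries -44.9 to -35.5. The tests of the members in that model are given with and without replicate 2. Gnas-eKO BCC replicate 3 stood apart as well, at 5.29 on the second component, where the other BCC libraries of that model scored 18.7 to 32.5. Pairs of these libraries that held replicate 3 differed most in counts, with a chi-square per degree of freedom of 111 to 179, against 24.6 to 82.6 for the other pairs. Fits without replicate 3 are given only for Igf1r and for the number of members called. In the column names of the count table the SmoM2 BCC libraries carry a different prefix from the SmoM2 Con libraries, and what it marks is not stated, so any difference it stands for cannot be told apart from the tumor. Each column has its own identifier, but the labels do not say that each library came from its own mouse, so the p-values measure only the spread between these libraries. Fewer cells of a type and less RNA per cell cannot be told apart in such bulk samples.

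Tumors of the SmoM2 model carried more Igfbp7, Igfbp5, Igfbp6, Igfbp4 and Igf1r RNA than control epidermis. In PKI tumors Igfbp7 and Igf2r were higher and Igf2 was lower, while Igfbp4, Igfbp5 and Igfbp6 did not pass the test. In Gnas-eKO tumors the values of Igfbp5, Igfbp6, Igfbp7 and Igf1r lay on the same side as in SmoM2, with larger standard errors, and none passed. Their unadjusted edgeR p-values ran from 0.000934 (Igfbp7) to 0.00897 (Igfbp5), while in PKI an unadjusted p of 0.00572 (Igf2r) passed after adjustment. Of the 9 members other than Igfbp2, 5 were higher and 0 lower in SmoM2, where 16.2% of the 16370 genes tested were higher and 13.5% lower at an adjusted p under 0.05. In Gnas-eKO edgeR called 0 of the 9, where 1.46% of 16409 genes were higher and 0.165% lower. There 5 of the 9 had an unadjusted p under that threshold. DESeq2 called 4 (Igfbp5, Igfbp6, Igfbp7 and Igf1r), and 1535 of those 16409 genes in all, against 267 with edgeR. The share of all genes at an unadjusted p under 0.05 is not given here for any comparison. In PKI 2 of the 9 were higher and 1 lower, against 18.7% and 15.8% of 16397 genes. The median log2 fold change over the 10 members (Igfbp2 included) came to 0.61 for SmoM2, 0.23 for Gnas-eKO and -0.14 for PKI, beside medians over all genes tested of 0.00054, 0.020 and -0.0012. The members were chosen with these results known, so the counts and medians describe these genes and are no evidence about the family. Without Gnas-eKO BCC replicate 2, edgeR called 3 of the 9 in Gnas-eKO (Igfbp6, Igfbp7 and Igf1r, all higher), where 7.36% of 16195 genes were higher and 4.43% lower, and the median over the 10 members was 0.31. All 10 members passed the filter on low counts in each model.

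**Figure D1:**
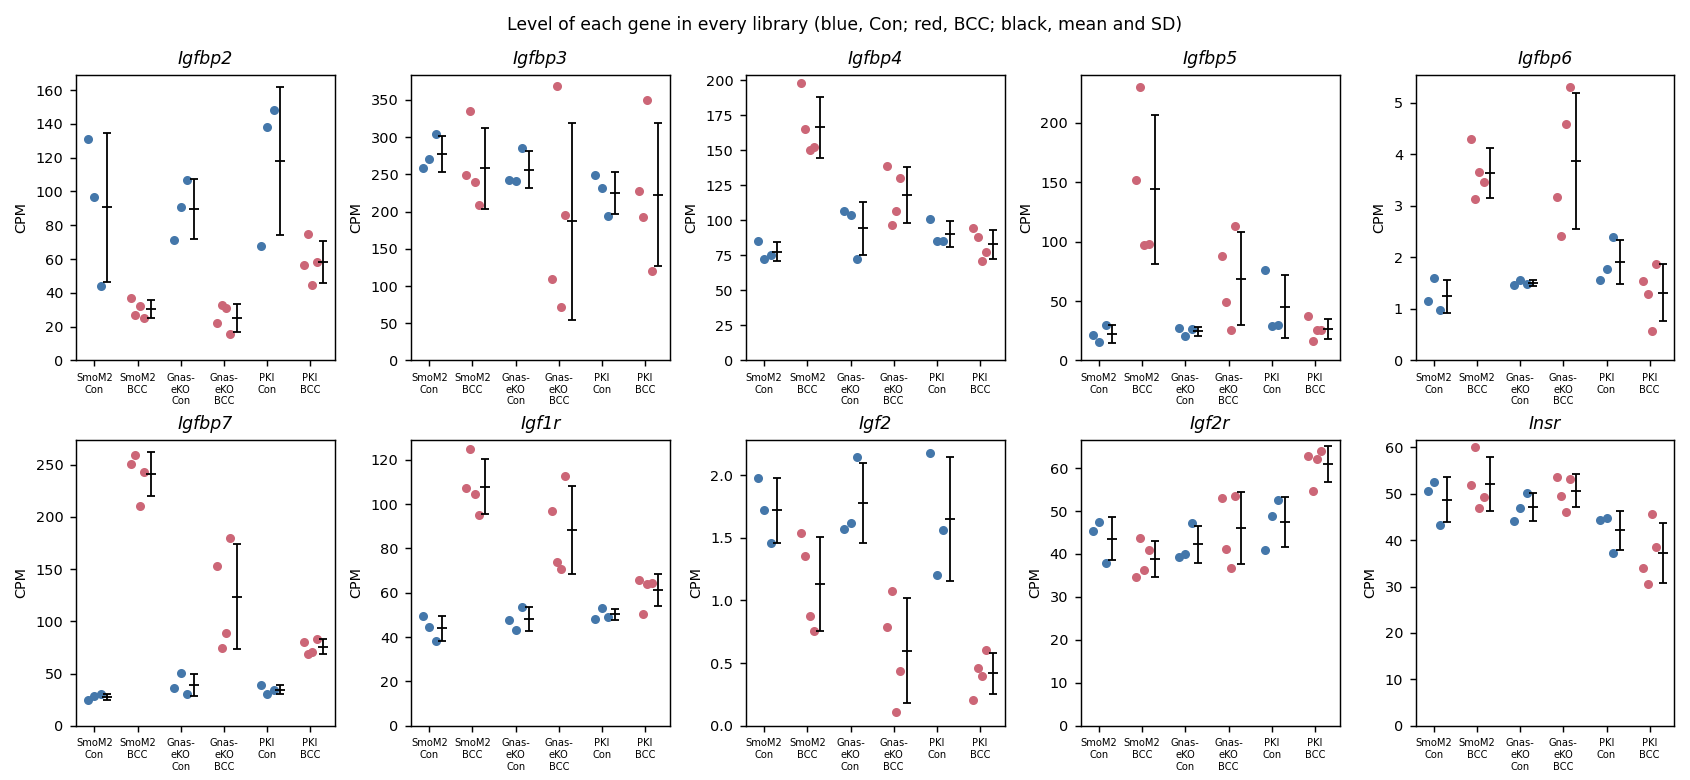
Level of each member in every library, in CPM (linear axes from 0). Blue points are Con libraries (3 per model), red points BCC libraries (4 per model), and the black bars give the mean and standard deviation of a group. Igfbp7 rises from 24.8 to 30.2 CPM in SmoM2 Con to 211 to 259 CPM in SmoM2 BCC, and Igfbp2 is below its Con group in every SmoM2 and Gnas-eKO BCC library.

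In control epidermis the order of the levels per kilobase, over 9 Con libraries, began with Igfbp3 at 80.9 ± 10.2 CPM per kb (SD, n = 9). Igfbp2 followed at 53.8 ± 19.0, and its range of 23.7 to 80.3 overlapped that of Igfbp3, 62.0 to 97.3. Igfbp7 stood at 27.9 ± 6.32 and Igfbp4 at 19.8 ± 3.01 CPM per kb, with overlapping ranges. A second set lay lower, with Igfbp5 at 5.10 ± 2.95, Igf2r at 4.77 ± 0.538, Insr at 3.35 ± 0.337 and Igf1r at 2.83 ± 0.294 CPM per kb, where the ranges of Igf2r and Insr did not overlap (4.08 to 5.64 against 2.72 to 3.82) and those of the other neighbours did. Igfbp6 stood at 1.40 ± 0.360 and Igf2 last at 0.299 ± 0.0570 CPM per kb, below every other member in each Con library. So the binding protein RNAs of control tail keratinocytes were mostly Igfbp3 and Igfbp2, and the only IGF ligand among the members was the scarcest RNA.

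Igfbp7 encodes a secreted binding protein also found in the matrix around vessels. In SmoM2 it stood at 24.8, 28.2 and 30.2 CPM in Con and at 250.3, 259, 211 and 243 CPM in BCC. Con therefore averaged 27.7 ± 2.72 CPM (SD, n = 3) and BCC 241 ± 21.1 CPM (SD, n = 4), with no overlap and the largest log2 fold change of any member in any model, 3.13 (SE 0.10, edgeR adjusted p = 1.37e-07). PKI tumors had 80.4, 68.9, 70.6 and 83.2 CPM against 38.9, 30.5 and 34.3 CPM in their controls. That rise was 1.14 on the log2 scale (SE 0.11, adjusted p = 0.000178), again without overlap. Gnas-eKO tumors had 152, 74.1, 89.0 and 179 CPM against 36.4, 50.6 and 30.0 CPM. Every one of these BCC libraries was above every Con library, but the log2 fold change of 1.68 (SE 0.34) had an adjusted p of 0.0511. Without BCC replicate 2 it was 1.86 with an adjusted p of 0.00722.

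Because Igfbp7 is abundant in vessels, the markers of endothelial cells are given beside it. The 6 endothelial markers on the list summed to 1.66 to 3.24 CPM in SmoM2 Con and 3.98 to 6.22 CPM in SmoM2 BCC, and to 1.77 to 4.30 against 5.29 to 6.88 CPM in PKI. In Gnas-eKO the sum was 1.87 to 3.63 CPM in Con and 2.68 to 6.50 CPM in BCC. Cdh5, a marker of endothelial cells, was at most 0.324 CPM in any SmoM2 library, 0.359 CPM in any PKI library and 0.821 CPM in any Gnas-eKO library. Cdh5 and Kdr overlapped between Con and BCC in every model. Pecam1 lay at 0.688 to 1.24 CPM in Con and 1.36 to 1.71 CPM in BCC of SmoM2, and at 1.20 to 2.13 against 2.14 to 2.98 CPM in PKI. In Gnas-eKO it overlapped (0.810 to 1.58 against 1.39 to 2.63 CPM). Of the endothelial markers tested, 2 of 3 were higher in SmoM2 BCC (Tek and Vwf), 0 of 3 in Gnas-eKO BCC and 1 of 2 in PKI BCC (Vwf). Pericyte and smooth muscle markers summed to at most 7.61 CPM in any library, with Pdgfrb higher in SmoM2 BCC and Acta2 higher in PKI BCC. The 8 fibroblast markers summed to 169 to 202 CPM in SmoM2 Con and 494 to 648 CPM in SmoM2 BCC. Most of that difference was Dcn, at 12.2 to 27.7 CPM against 362 to 500 CPM, while Pdgfra stayed at or below 0.879 CPM and Lum at or below 1.49 CPM in these 7 libraries. In all, 3 of the 8 fibroblast markers tested were higher in SmoM2 BCC (Col1a2, Col6a1 and Dcn) and 1 lower (Thy1). In Gnas-eKO the fibroblast sum was 187 to 202 CPM in Con and 145 to 745 CPM in BCC, and in PKI 79.4 to 155 against 161 to 200 CPM. In PKI BCC Col3a1, Dcn and Lum were higher and Col6a1 lower, and in Gnas-eKO BCC Dcn was higher. Markers of keratinocyte states, leukocytes and melanocytes also differed. Of the 5 basal markers, 4 were lower in SmoM2 BCC (Col17a1, Itga6, Krt14 and Krt5) and 1 higher (Trp63), with sums of 28968 to 37658 CPM in Con and 21278 to 23250 CPM in BCC, and 2 were lower in PKI BCC (Col17a1 and Krt5). Of the 5 suprabasal markers, Krt10 and Krtdap were lower in SmoM2 BCC, and in PKI BCC Krt1 was higher and Krtdap and Lor were lower. Of the 8 hair follicle markers, 3 were higher in SmoM2 BCC (Lgr5, Lhx2 and Sox9) and 1 in Gnas-eKO BCC (Lgr5). In PKI BCC 5 hair follicle markers were higher (Krt71, Krt75, Krt79, Lgr5 and Lhx2) and 2 lower (Cd34 and Krt15). Their sums ran from 2941 to 3414 CPM in Con and 3160.0 to 4278 CPM in BCC of SmoM2, and from 3387 to 3883 against 3666 to 4923 CPM in PKI. The 7 leukocyte markers summed to 43.6 to 113 CPM in PKI Con and 251 to 471 CPM in PKI BCC, 6 of them called higher, and 1 was lower in SmoM2 BCC (Itgam). Of the 5 melanocyte markers, 4 were lower in PKI BCC (Dct, Pmel, Tyr and Tyrp1) and 2 in SmoM2 BCC (Mlana and Tyr). Without Gnas-eKO BCC replicate 2, the Gnas-eKO fibroblast sum was 145 to 402 CPM with 5 markers higher and 1 lower, the endothelial sum 4.28 to 6.50 CPM with 1 of 2 tested higher (Vwf), the hair follicle list had 4 higher and the basal list 3 lower. In the same fit Krt10 (suprabasal) and Itgam (leukocyte) were lower and Pdgfrb (pericyte) was higher. The part of these cell types and states in the changes of the members was not tested.

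Igfbp5 encodes a binding protein that also attaches to extracellular matrix. In SmoM2 it measured 21.7, 15.4 and 29.8 CPM in Con and 152, 229.9, 96.8 and 97.9 CPM in BCC, so the lowest tumor library was above the highest control. This was a log2 fold change of 2.71 (SE 0.43), at an edgeR adjusted p of 0.00547. A fit blocked on replicate number gave 2.80 (SE 0.54) with an adjusted p of 0.0524. Gnas-eKO BCC libraries had 88.0, 49.1, 25.7 and 113 CPM against 26.9, 20.3 and 26.1 CPM, and BCC replicate 3 fell within the range of the controls. The log2 fold change there was 1.51 (SE 0.45, adjusted p = 0.12), and without BCC replicate 2 it was 1.64 (adjusted p = 0.0621). In PKI the groups overlapped, with 37.6, 16.6, 26.0 and 25.4 CPM in BCC and 76.0, 29.3 and 30.3 CPM in Con, a log2 fold change of -0.76 (SE 0.42, adjusted p = 0.204). A fit blocked on replicate number gave -0.68 with an adjusted p of 0.0112. Con replicate 1 alone lay far above the others in that group, and without it the log2 fold change was -0.17 (adjusted p = 0.678).

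Igfbp4, a binding protein that is cut by the protease Pappa to free its ligand, was at 85.3, 72.5 and 75.4 CPM in SmoM2 Con and at 198, 166, 151 and 153 CPM in SmoM2 BCC. It rose by 1.11 on the log2 scale (SE 0.11, adjusted p = 5.94e-05), with no overlap. In Gnas-eKO its Con values of 107, 104 and 72.8 CPM overlapped its BCC values of 139, 96.4, 106 and 130.1 CPM (log2 fold change 0.33, SE 0.18, adjusted p = 0.365, and 0.42 at 0.192 without BCC replicate 2). In PKI it read 101, 85.1 and 85.1 CPM in Con and 94.8, 88.0, 70.8 and 77.6 CPM in BCC (log2 fold change -0.11, SE 0.11, adjusted p = 0.47).

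Igfbp6, which prefers IGF2 to IGF1, was scarce throughout. In SmoM2 it went from 1.15, 1.61 and 0.973 CPM in Con to 4.29, 3.14, 3.66 and 3.47 CPM in BCC, from counts of 18 to 28 per library to counts of 65 to 95. The rise was 1.57 on the log2 scale (SE 0.25, adjusted p = 0.00136). Gnas-eKO tumors, at 3.18, 2.41, 4.60 and 5.31 CPM, were all above their controls at 1.47, 1.56 and 1.48 CPM (log2 fold change 1.37, SE 0.34), but the adjusted p was 0.0803. Without BCC replicate 2 it was 0.0149. In PKI the BCC values of 1.54, 1.29, 0.578 and 1.86 CPM overlapped the Con values of 1.57, 1.77 and 2.40 CPM (log2 fold change -0.53, SE 0.39, adjusted p = 0.327).

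Igfbp2, a binding protein of IGF1 and IGF2, had lower mean values in tumors of all 3 models, a pattern known beforehand. SmoM2 Con libraries had 131, 96.8 and 43.8 CPM and SmoM2 BCC libraries 36.9, 27.0, 32.1 and 24.9 CPM. Gnas-eKO had 71.2, 90.9 and 107 CPM in Con and 21.9, 33.0, 31.1 and 15.4 CPM in BCC. PKI had 68.0, 138 and 148 CPM in Con and 56.4, 74.7, 44.4 and 58.3 CPM in BCC. The groups did not overlap in SmoM2 or Gnas-eKO, and in PKI 1 BCC library was above the lowest Con library. The log2 fold changes were -1.57 (SE 0.36), -1.81 (SE 0.26) and -1.0 (SE 0.29), that is 2.97-fold, 3.51-fold and 2.01-fold lower. Without Gnas-eKO BCC replicate 2 the value in that model was -1.96 (SE 0.26).

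Igfbp3, the main carrier of IGFs in blood, did not pass in any model. Its SmoM2 values ran from 258 to 305 CPM in Con and from 209 to 336 CPM in BCC. In Gnas-eKO the 4 BCC libraries spread over 110.1, 368, 72.3 and 196 CPM around Con values of 242, 242 and 285 CPM. BCC replicate 2, the library nearest the controls on the first principal component, held the highest of these values, and BCC replicate 3 the lowest. The log2 fold change was -0.45 (SE 0.47, adjusted p = 0.654), and without that library -1.01 (adjusted p = 0.0948). PKI ran from 194 to 249 CPM in Con and from 120.1 to 350.4 CPM in BCC.

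**Figure D2:**
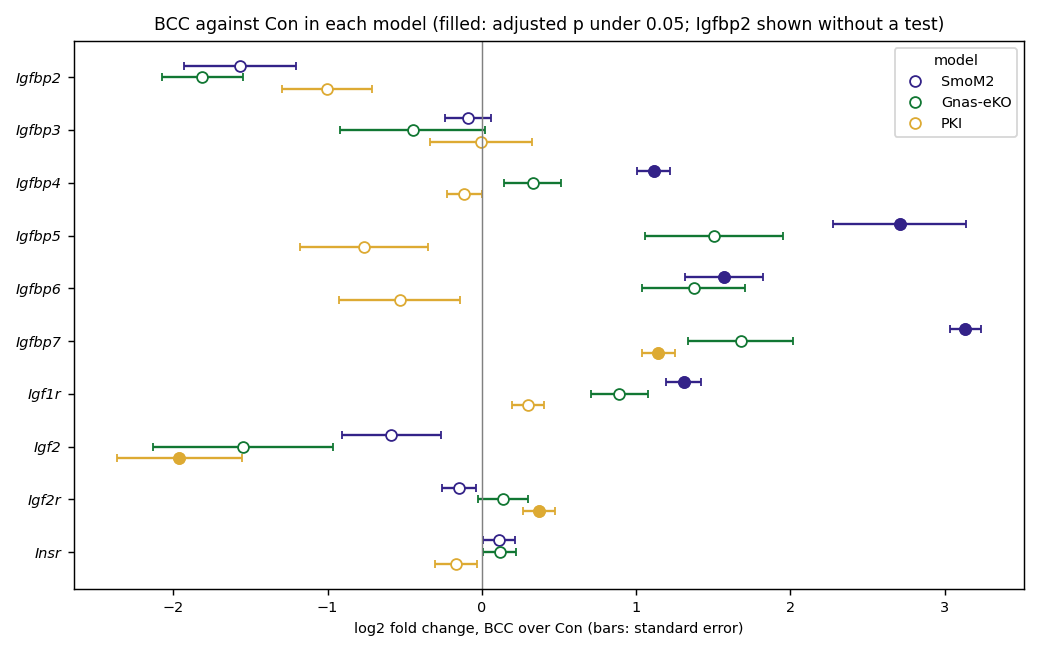
Log2 fold change of BCC over Con for the 10 members in SmoM2 (violet), Gnas-eKO (green) and PKI (yellow). Bars are standard errors from the edgeR fit of the 7 libraries of each model, and filled points have an adjusted p under 0.05, except that Igfbp2 is drawn unfilled because it is shown without a test. Igfbp7 lies to the right of 0 in all 3 models (3.13, 1.68 and 1.14), while Igfbp5 lies at 2.71 in SmoM2 and at -0.76 in PKI.

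The make-up of the binding protein RNA differed accordingly. Per kilobase, the 6 binding proteins summed to 183 ± 14.5 CPM per kb over the SmoM2 controls (SD, n = 3), and SmoM2 tumors reached 363 ± 42.6 (SD, n = 4). The corresponding sums were 189 ± 11.6 and 217 ± 52.5 CPM per kb in Gnas-eKO, and 194 ± 7.69 and 189.7 ± 22.7 CPM per kb in PKI, where the groups overlapped. Igfbp7 made up 12.6% ± 2.21 of the sum in SmoM2 Con and 55.0% ± 3.51 in SmoM2 BCC. In Gnas-eKO its share was 17.0% ± 4.31 in Con and 47.1% ± 13.8 in BCC, and in PKI 14.8% ± 2.40 in Con and 33.5% ± 6.46 in BCC. Without Gnas-eKO BCC replicate 2, whose share of 26.8% was the lowest of that group, the Gnas-eKO BCC share was 53.9% ± 3.23 (SD, n = 3). In each model every BCC library was above every Con library in this share. The share of Igfbp2 stood at 26.2%, 25.5% and 32.7% in the Con groups of SmoM2, Gnas-eKO and PKI, and at 4.55%, 6.93% and 17.0% in their BCC groups. Igfbp3 had the highest mean share in each Con group (48.9%, 43.3% and 37.2%) and held it in PKI BCC at 36.5%, while Igfbp7 led in SmoM2 BCC and Gnas-eKO BCC. These shares are built from the levels above and are no separate evidence.

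**Figure D3:**
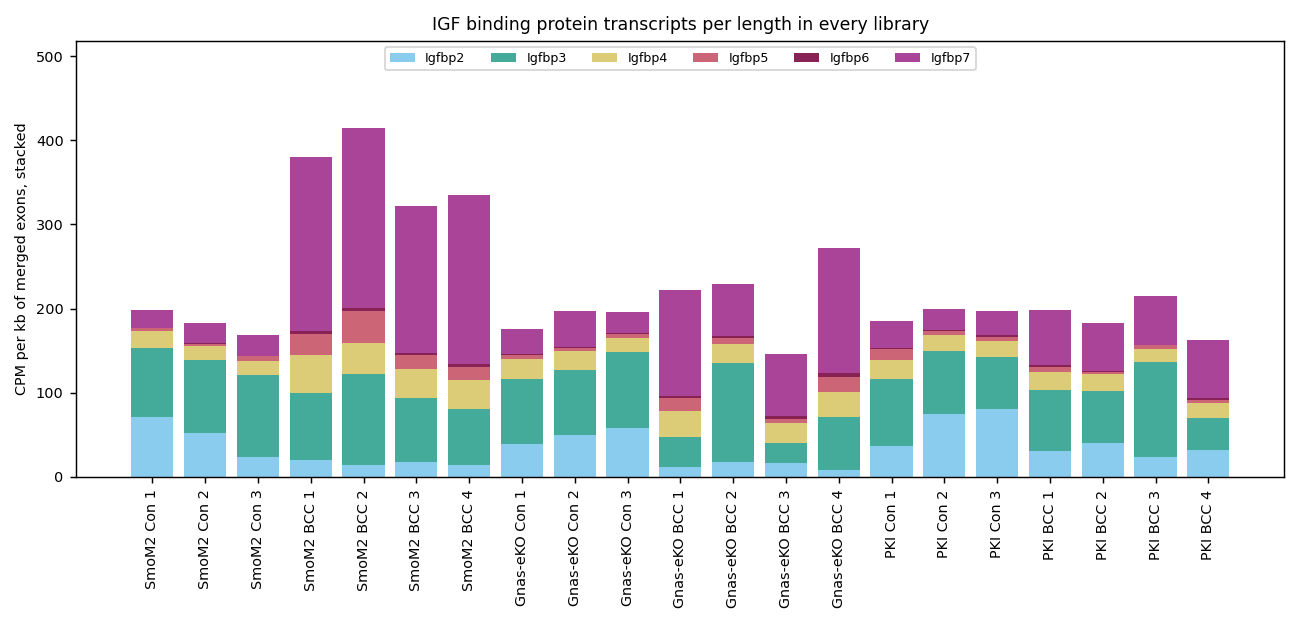
Summed level of the 6 binding protein RNAs in each of the 21 libraries, in CPM per kilobase of merged exons (stacked bars, linear axis from 0, one color per gene). The SmoM2 BCC bars reach 322 to 415 CPM per kb against 169 to 198 in SmoM2 Con, and the Igfbp7 segment is the tallest one in each of them.

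Among the receptors, Igf1r, the signalling receptor for both IGFs, stood at 49.4, 44.4 and 38.1 CPM in SmoM2 Con and at 107, 125, 105 and 95.0 CPM in SmoM2 BCC. It rose by 1.31 on the log2 scale (SE 0.11, adjusted p = 3.22e-05). Gnas-eKO BCC libraries had 96.7, 73.7, 70.8 and 113 CPM against 47.7, 43.1 and 53.6 CPM in Con, without overlap. That log2 fold change was 0.89 (SE 0.18) with an adjusted p of 0.0541, and it passed without BCC replicate 2 (0.97, adjusted p = 0.0152) or BCC replicate 3 (0.99, adjusted p = 0.0411). In PKI the BCC values of 65.9, 50.6, 63.8 and 64.6 CPM overlapped the Con values of 48.3, 53.2 and 49.2 CPM through BCC replicate 2. The log2 fold change of 0.30 (SE 0.10) had an adjusted p of 0.0506, and of 0.0115 without that replicate. With all libraries kept it passed under DESeq2 (adjusted p = 0.0396) and with sex as a covariate (adjusted p = 0.0224), and did not under the other 6 alternatives, with adjusted p from 0.0224 to 0.157 over all 8.

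Insr, the insulin receptor, did not pass in any model. It lay at 43.2 to 52.5 CPM in SmoM2 Con and 47.0 to 60.2 CPM in SmoM2 BCC, at 44.2 to 50.2 and 46.1 to 53.7 CPM in Gnas-eKO, and at 37.3 to 44.7 and 30.6 to 45.7 CPM in PKI. Its log2 fold changes were 0.11 (SE 0.10), 0.12 (SE 0.11) and -0.17 (SE 0.14), with edgeR adjusted p-values of 0.471, 0.608 and 0.375. Without Gnas-eKO BCC replicate 2 the value in that model was 0.13 (adjusted p = 0.549). The ratio of Igf1r to Insr per kilobase was 0.693 to 0.800 in SmoM2 Con and 1.58 to 1.83 in SmoM2 BCC. It was 0.750 to 0.884 against 1.22 to 1.73 in Gnas-eKO and 0.892 to 1.08 against 1.14 to 1.59 in PKI. In every BCC library, but in only 1 of the 9 Con libraries, the ratio exceeded 1, so per kilobase Igf1r RNA was above Insr RNA there.

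Igf2r, which clears IGF2, overlapped between groups in SmoM2 (45.5, 47.4 and 38.0 CPM in Con, 34.7, 43.7, 36.2 and 41.0 CPM in BCC) and in Gnas-eKO (39.3, 40.1 and 47.3 CPM against 53.0, 41.2, 36.8 and 53.4 CPM). The log2 fold changes there were -0.15 (SE 0.11, adjusted p = 0.344) and 0.14 (SE 0.16, adjusted p = 0.697), the latter 0.19 (adjusted p = 0.537) without BCC replicate 2. In PKI it stood at 41.0, 48.9 and 52.5 CPM in Con and at 62.7, 54.6, 62.2 and 63.9 CPM in BCC, without overlap. The rise of 0.37 on the log2 scale (SE 0.10) passed at an adjusted p of 0.0221. It no longer passed without PKI Con replicate 1 (0.27, adjusted p = 0.076) or Con replicate 2 (0.39, adjusted p = 0.0569). The gene overlaps Airn, a noncoding RNA gene on the opposite strand that is also in the table, and whether the counting used strand is not given in the sources used here.

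Igf2, the fetal growth factor of the family, had few counts in these libraries. PKI Con libraries held 43, 19 and 26 counts and PKI BCC libraries 4, 9, 9 and 11 counts, or 2.18, 1.2 and 1.56 CPM against 0.205, 0.464, 0.400 and 0.603 CPM. The groups did not overlap, and Igf2 fell by 1.96 on the log2 scale (SE 0.40, edgeR adjusted p = 0.0055). With limma on the authors' normalized values the change was smaller, -0.89 on the log2(value + 1) scale (adjusted p = 0.00421) and -1.21 on the log2(value + 0.5) scale (adjusted p = 0.00428). Gnas-eKO had 31, 29 and 42 counts in Con and 17, 20, 2 and 9 counts in BCC, again without overlap, with a log2 fold change of -1.55 (SE 0.58, adjusted p = 0.195). Without BCC replicate 2 it was -1.96 (SE 0.58, adjusted p = 0.0725). SmoM2 had 43, 30 and 27 counts in Con and 34, 28, 19 and 15 counts in BCC, which overlapped (-0.59, SE 0.32, adjusted p = 0.207). The gene overlaps Igf2os on the opposite strand, and the same limit on strand applies. Igf1, the other ligand, was not tested in any model, because it passed the filter in none, and its highest value in the 21 libraries was 1.07 CPM.

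Whether a change differed between models was tested directly as the difference between the BCC against Con changes of 2 models. Between PKI and SmoM2, 6 members differed, where 24.9% of 17261 genes did. The change in PKI was lower than that in SmoM2 by 3.47 log2 units for Igfbp5 (log2 difference -3.47, SE 0.63, adjusted p = 0.00294). For Igfbp6 the log2 difference was -2.10 (SE 0.46, adjusted p = 0.00509), and for Igfbp7 -1.99 (SE 0.15, adjusted p = 1.39e-06). Igfbp4 differed by -1.23 (SE 0.16, adjusted p = 0.000155) and Igf1r by -1.01 (SE 0.16, adjusted p = 0.000565). Igf2r was the member with the opposite sign, 0.52 (SE 0.15, adjusted p = 0.0235). That call was lost without any of SmoM2 Con replicate 1, SmoM2 Con replicate 2, SmoM2 BCC replicate 1 or PKI Con replicate 1 (0.43 to 0.49, adjusted p from 0.0503 to 0.0691), and in a joint fit of all 21 libraries (0.52, adjusted p = 0.0612). Igfbp3 at 0.09, Igf2 at -1.38 and Insr at -0.28 did not pass, with adjusted p-values from 0.0635 (Igf2) to 0.898 (Igfbp3). Igfbp2 stood at 0.57 (SE 0.50).

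Between Gnas-eKO and SmoM2, edgeR called 0 members, where 0.175% of 17151 genes were called. At an unadjusted p under 0.05 there were 2, Igfbp4 (-0.78, SE 0.22) and Igfbp7 (-1.45, SE 0.37). DESeq2 called 1, Igfbp7 (adjusted p = 0.0183), beside 212 of those 17151 genes in all. The edgeR adjusted p-values of the 9 members other than Igfbp2 ran from 0.208 to 0.988. Between PKI and Gnas-eKO, 1 member was called, Igfbp6 (-1.90, SE 0.52, adjusted p = 0.0371), where 9.06% of 17254 genes were. The call of Igfbp6 was lost in 9 of the 14 fits that left out 1 library, with an adjusted p of up to 0.103. These were the fits without any of the 3 Con libraries of either model, Gnas-eKO BCC replicate 4, or PKI BCC replicates 1 and 2, and their log2 differences ran from -2.03 to -1.70. Igfbp5 stood at -2.27 (SE 0.66, adjusted p = 0.0508) there. It passed under DESeq2 (adjusted p = 0.00345) and in the joint fit of all 21 libraries (adjusted p = 0.0319). It also passed without Gnas-eKO BCC replicate 2 (adjusted p = 0.0455) or replicate 3 (adjusted p = 0.0149), and in no other alternative. These 3 comparisons share libraries with each other, and the model differences carry batch and day with them.

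The positions of the members are given on GRCm38. Igfbp2 (chr1:72824503-72852474, plus strand) and Igfbp5 (chr1:72857932-72874884, minus strand) lie tail to tail with 5457 bases between their ends and no annotated gene in between. The log2 fold changes of the 2 neighbours, Igfbp2 first, were -1.57 and 2.71 in SmoM2 and -1.81 and 1.51 in Gnas-eKO. In PKI they were -1.0 and -0.76, and Igfbp5 stood at -0.17 without Con replicate 1. Igfbp3 (chr11:7206086-7213923, minus strand) is 3539 bases from Igfbp1, which is not a row of the table used here. Igfbp4 (chr11:99041244-99054392) and Igfbp6 (chr15:102144362-102149511) are on the plus strand, and Igfbp7 (chr5:77349240-77408041, minus strand) overlaps Polr2b on the other strand, with the same limit on strand as above. Igf1r is at chr7:67952827-68233668 (plus strand), Igf2 at chr7:142650766-142666816 (minus strand), Igf2r at chr17:12682406-12769664 (minus strand) and Insr at chr8:3122061-3279617 (minus strand).

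The start regions of the Igfbp2 and Igfbp5 pair, and of Igfbp4 and Igfbp7, which rose in SmoM2, are printed to show how the promoters of members whose values went apart or together read. Each is 300 bases, 250 before and 50 after a RefSeq start on GRCm38.p6, 5′ to 3′ on the gene's strand, with the GC box letters GGGCGG and the TATA letters TATAAA in capitals, on either strand.
Igfbp2, chr1:72824230-72824529, plus strand: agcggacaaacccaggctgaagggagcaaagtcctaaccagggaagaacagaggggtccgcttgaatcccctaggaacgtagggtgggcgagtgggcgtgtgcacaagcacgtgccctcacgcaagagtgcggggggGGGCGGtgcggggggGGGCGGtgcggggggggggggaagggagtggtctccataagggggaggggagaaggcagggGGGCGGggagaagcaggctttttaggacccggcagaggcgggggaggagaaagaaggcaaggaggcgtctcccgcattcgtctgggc
Igfbp5, chr1:72874816-72875115, minus strand: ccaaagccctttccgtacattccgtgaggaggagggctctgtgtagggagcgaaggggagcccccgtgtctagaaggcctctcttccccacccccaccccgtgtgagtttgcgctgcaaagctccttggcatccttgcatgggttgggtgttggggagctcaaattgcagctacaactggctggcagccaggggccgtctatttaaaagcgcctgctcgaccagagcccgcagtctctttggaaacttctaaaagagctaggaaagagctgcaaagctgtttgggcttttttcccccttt
Igfbp4, chr11:99040994-99041293, plus strand: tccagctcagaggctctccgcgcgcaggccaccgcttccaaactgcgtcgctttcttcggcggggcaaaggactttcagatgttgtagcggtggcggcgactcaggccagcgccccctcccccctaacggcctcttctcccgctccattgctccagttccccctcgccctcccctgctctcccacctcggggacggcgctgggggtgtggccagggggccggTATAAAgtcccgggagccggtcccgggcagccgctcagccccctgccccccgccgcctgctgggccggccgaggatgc
Igfbp7, chr5:77407996-77408295, minus strand: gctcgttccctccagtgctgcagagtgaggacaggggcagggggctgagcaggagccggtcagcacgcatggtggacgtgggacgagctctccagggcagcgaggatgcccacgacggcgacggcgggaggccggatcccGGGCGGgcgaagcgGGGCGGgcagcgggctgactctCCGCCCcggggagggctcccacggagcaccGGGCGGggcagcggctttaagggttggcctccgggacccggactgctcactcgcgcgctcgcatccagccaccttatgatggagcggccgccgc

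Of the 10 members 9 had an entry in that table, with 13 start regions, and Insr had none. GGGCGG was found in 6 of the 13, belonging to Igf1r, Igf2, Igf2r, Igfbp2 and Igfbp7, and in 35.7% of all 32851 start regions. TATAAA was found in 2, of Igfbp4 and Igfbp6, and in 13.6% of all. The printed Igfbp7 region holds 4 GC boxes and the printed Igfbp2 region 3, and GC makes up 73.3% and 67.0% of their bases. The printed Igfbp4 and Igfbp5 regions hold 0 GC boxes, with GC at 71.3% and 56.3%. The median over all start regions was 52.7%. A second Igfbp2 start region (chr1:72825137-72825436) holds 0 GC boxes, and GC makes up 57.3% of it. Searched on both strands, the Gli motif GACCACCCA was in 0 of the 13 and in 0.253% of all start regions, and the cyclic AMP response element TGACGTCA in 0 of the 13 and in 1.79% of all. A match or its absence describes these letters in this window and says nothing about binding.

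Libraries could be told apart by sex from Xist and Y-linked RNA, and both sexes occurred in each group. The 4 female Con libraries had Igfbp2 at 43.8, 68.0, 71.2 and 90.9 CPM, below all 5 male Con libraries at 96.8 to 148 CPM. Within males of SmoM2, Igfbp2 was 131 and 96.8 CPM in Con and 32.1 and 24.9 CPM in BCC, and within females 43.8 CPM in Con and 36.9 and 27.0 CPM in BCC. Within males of PKI it was 138 and 148 CPM in Con and 44.4 and 58.3 CPM in BCC, and within females 68.0 CPM in Con against 56.4 and 74.7 CPM in BCC. In Gnas-eKO it was 107 CPM in Con and 31.1 and 15.4 CPM in BCC within males, and 71.2 and 90.9 CPM in Con against 21.9 and 33.0 CPM in BCC within females. Within each sex the BCC values were below the Con values in SmoM2 and Gnas-eKO, and in PKI this held for males, while the single female Con library lay between both female BCC libraries. Igfbp5 had its highest Con value, 76.0 CPM, in the female PKI Con library. In a fit of all 21 libraries with sex as a term, 0 members were called, where 2.32% of 17695 genes were, and 1 had an unadjusted p under 0.05 (Igfbp4, log2 difference of female minus male 0.21, SE 0.08). Igfbp2 stood at -0.20 (SE 0.20) in that fit, which takes the difference as equal in Con and BCC.

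**Figure D4:**
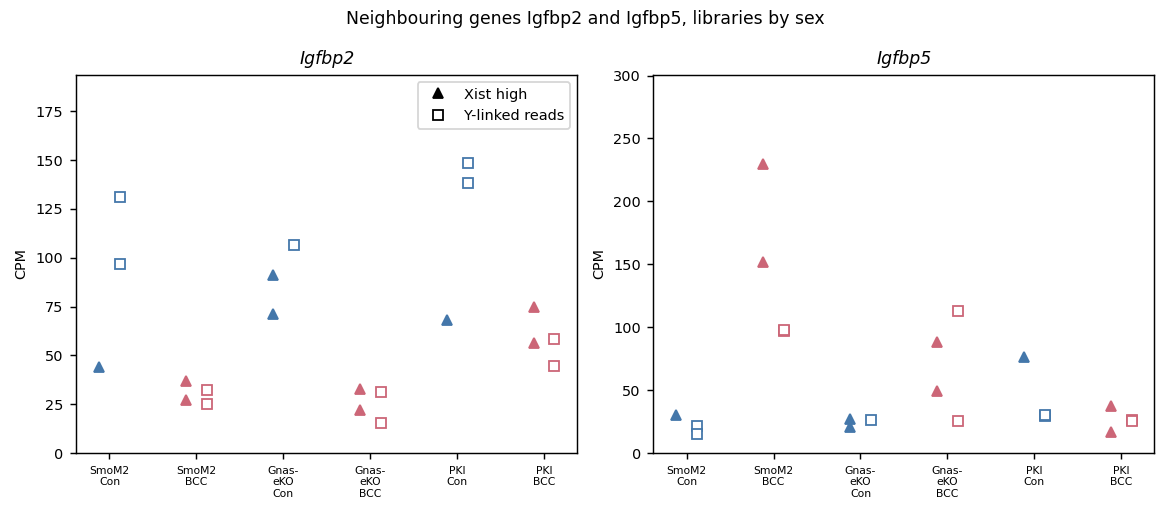
Igfbp2 (left) and Igfbp5 (right) in every library, in CPM on linear axes from 0, with filled triangles for female libraries (high Xist) and open squares for male libraries (Y-linked reads), blue for Con and red for BCC. Every female Con library is below every male Con library for Igfbp2, at 43.8 to 90.9 CPM against 96.8 to 148 CPM.

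Of 39 other genes of the IGF and insulin pathway, 36 were in the table. In SmoM2 9 of 32 tested were higher in BCC and 7 lower, beside 16.2% and 13.5% of all genes tested. The 3 called genes with the largest change were Grb14, an adaptor that inhibits the insulin receptor, Irs1, the docking protein that couples both receptors to phosphoinositide 3-kinase, and Stc1, a stanniocalcin that inhibits the protease Pappa. Grb14 rose from 1.85 ± 0.582 to 20.0 ± 1.76 CPM (log2 fold change 3.45, SE 0.20, adjusted p = 2.94e-06). Irs1 rose from 34.4 ± 5.28 to 117 ± 8.85 CPM (1.78, SE 0.11, adjusted p = 5.43e-06), and Stc1 fell by 1.56 on the log2 scale (SE 0.41, adjusted p = 0.0184). Igfals, Irs2, Foxo1, Ptpn1, Igf2bp2 and Slc2a1 were among the others that rose, and H19, Pik3r1, Pdpk1, Mtor and Akt2 among the others that fell. H19, which neighbours Igf2 at 72622 bases, had a log2 fold change of -1.47 (SE 0.44, adjusted p = 0.0321).

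In Gnas-eKO 1 of 32 pathway genes was higher, Grb14 (log2 fold change 2.66, SE 0.41, adjusted p = 0.0267), and 1 lower, Stc1 (-2.93, SE 0.48, adjusted p = 0.0326), beside 1.46% and 0.165% of all genes. H19 had the widest value there, -3.57 (SE 0.85), and did not pass (adjusted p = 0.0769). Without BCC replicate 2, 5 pathway genes were higher (Grb14, Ide, Igfals, Irs1 and Stc2) and 1 lower (Stc1), beside 7.36% and 4.43% of all genes. PKI had 7 of 33 higher and 4 lower, beside 18.7% and 15.8% of all genes. Among the genes called, its largest changes were in Igf2bp1, an RNA-binding protein that binds Igf2 RNA, with 6 to 12 counts per BCC library against 0 to 1 in Con (adjusted p = 0.00673), in Stc2, another inhibitor of Pappa (2.17, SE 0.59, adjusted p = 0.0198), and in Pik3cd, a catalytic subunit of phosphoinositide 3-kinase that is abundant in leukocytes (1.91, SE 0.31, adjusted p = 0.002). Igf2bp1 was not tested within SmoM2 or Gnas-eKO. Its change in PKI was not called different from that in Gnas-eKO (log2 difference 0.74, SE 1.22, edgeR adjusted p = 0.753) or SmoM2 (1.84, SE 1.35, adjusted p = 0.345). The part of the leukocyte markers, higher in PKI BCC as given above, in the value of Pik3cd was not tested. Slc2a1, Igfals and Akt1 were among the others that rose in PKI, and Grb10, Pik3r1, Pappa and Foxo3 fell. With all libraries, no gene of the list passed in the same direction in all 3 models. Without Gnas-eKO BCC replicate 2, Igfals, the subunit that joins IGF complexes in blood, was higher in Gnas-eKO too (1.75, adjusted p = 0.0212), beside 1.43 in SmoM2 (adjusted p = 0.00719) and 1.22 in PKI (adjusted p = 0.0141). The medians over the tested genes of the list were 0.089, -0.016 and 0.033 log2 units in SmoM2, Gnas-eKO and PKI.

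**Figure D5:**
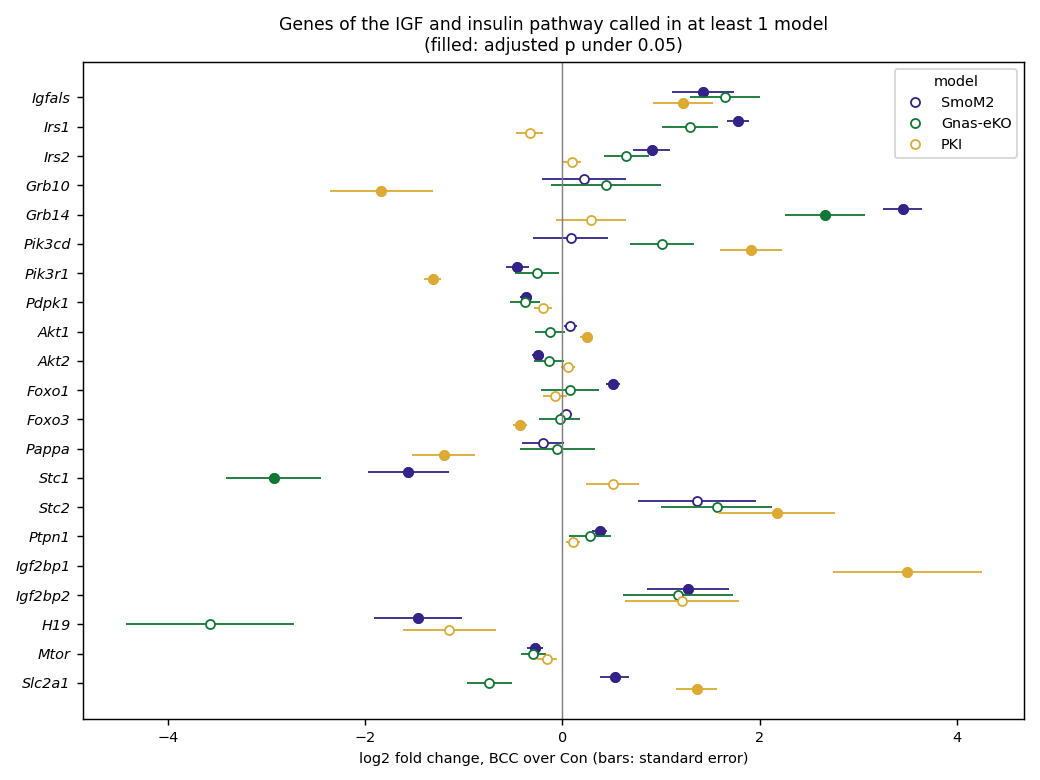
Log2 fold change of BCC over Con for pathway genes called in at least 1 model and reported here, in SmoM2 (violet), Gnas-eKO (green) and PKI (yellow), with standard errors as bars and filled points for an adjusted p under 0.05. Grb14 lies at 3.45 and 2.66 in SmoM2 and Gnas-eKO and at 0.29 in PKI, where it did not pass.

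For each member, the 2 genes with the most similar pattern were found as those with the smallest root mean square (RMS) difference of log2 CPM over the 21 libraries, each gene centred on its own mean, among 15640 genes tested in all 3 models. The closest to Igfbp7 were Creb5 (RMS 0.281) and Pakap (0.295). Creb5 read 20.6 to 27.9 CPM in SmoM2 Con and 164 to 207 CPM in SmoM2 BCC. Sox15 (0.388) and Gpt (0.450) were closest to Igfbp2, Snx18 (0.177) and Isoc1 (0.190) to Igfbp4, Ank2 and Gm49492 (both 0.472) to Igfbp5, and Nyap1 (0.356) and Mgmt (0.393) to Igfbp6. Sirpa (0.354) and Epb41l1 (0.360) were closest to Igfbp3. Of the receptors, Igf1r was closest to Bcam (0.151) and Wdr6 (0.155), Igf2r to Myh9 (0.120) and Erc1 (0.134), and Insr to Nfrkb (0.106) and Kdm3a (0.118). Igf2 was closest to Zfp652 (0.368) and Dlg2 (0.393). A gene that varies little can have a small RMS difference for that reason alone. The SD of log2 CPM over the 21 libraries was 0.231 for Insr, 0.269 for Igf2r, 0.520 for Igf1r and 1.17 for Igfbp7. The RMS values therefore do not rank the members by how close their partners are. Among the members themselves, Igf1r and Igfbp4 were the nearest pair (0.297). These libraries share group and batch, and the part of either in such a likeness was not tested.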

How the data were processed

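The authors deposited estimated counts per gene, made with the tools below (33.1% of the values are not whole numbers, lowest row sum 10), and normalized signal values scaled by TMM. Per the submitters' processing notes, bcl2fastq 2.20, cutadapt 1.18, STAR 2.7.0f, Partek and the mm10 build were used; the kit was stranded, per the labels' protocols. The members, pathway list and marker lists were chosen with earlier results of these data known. The named genes were all members, 2 genes most like each, and the 3 called pathway genes with the largest change per model, while other pathway genes and H19 in Gnas-eKO were named after their values were seen; values of some pathway genes are not reported here. Rounded counts went into edgeR 4.0.16 under R 4.3.3 (TMM, expression filter by group, robust quasi-likelihood test, Benjamini-Hochberg over all genes, threshold 0.05), on the 7 libraries of a model or the 14 of a pair, after checks on simulated data. Levels are CPM with TMM factors over 21 libraries, log2 CPM uses a prior count of 2, and lengths come from GENCODE. A count of 3, the floor, was at most 0.189 CPM in any library and covers counting error only. No 2 libraries agreed within sampling noise (lowest chi-square per degree of freedom within a group 8.33). Same-numbered libraries were not treated as pairs, since the labels do not state that they are paired. The correlation of their deviations was above 0.1 in some pairs and not in others. Alternatives were DESeq2 1.42.0, its size factors, no filter, a replicate block, a joint fit, sex as a covariate, the authors' normalized values on log2(value + 1) or log2(value + 0.5) with limma 3.58.1, and leaving out each library; a sex term in the joint fit was added after seeing the data.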

Additional observations from a re-analysis of the deposited data

Results flagged for a closer look

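In the PKI BCC group the Igf1r level of replicate 2, 50.6 CPM, lay far from the other 3 libraries (63.8 to 65.9 CPM) by Dixon's criterion at the 95% level. Chance marks about 1 in 20 groups of this size, and 30 groups were examined.

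The changes of several members differed between models by the test of the difference itself. Between PKI and SmoM2 the log2 difference was -1.23 for Igfbp4, -3.47 for Igfbp5, -2.10 for Igfbp6, -1.99 for Igfbp7, -1.01 for Igf1r and 0.52 for Igf2r. Between PKI and Gnas-eKO it was -1.90 for Igfbp6. As given above, this call and that of Igf2r between PKI and SmoM2 were lost in several fits with 1 library left out. Day and batch differ between the models as well and cannot be told apart from them.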

How the results depend on the processing

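Igfbp2 is not counted here. Of the other 9 members, 5 passed in SmoM2, 4 to 5 under every alternative and 5 whichever library was left out. In Gnas-eKO 0 passed; DESeq2 called 4, no filter 1 and the joint fit of 21 libraries 5, and leaving out 1 library gave 0 to 3 (3 without BCC replicate 2, 1 without BCC replicate 3). In PKI 3 passed, 3 to 4 under the alternatives and 2 to 4 with 1 library left out (2 without Con replicate 1 or 2). Between PKI and SmoM2 6 passed, and 5 to 7 in the alternatives and with 1 library left out. Between Gnas-eKO and SmoM2 0 passed and DESeq2 called 1. Between PKI and Gnas-eKO 1 passed, against 2 with DESeq2, 2 in the joint fit, 0 with the replicate block and 0 to 3 with 1 library left out. Over all genes, the Gnas-eKO calls moved from 267 to 1535 (DESeq2), 135 (replicate block), 106 (sex as a covariate), 2644 (joint fit) and 0 to 1910 with 1 library left out. The calls between Gnas-eKO and SmoM2 moved from 30 to 212 (DESeq2), 66 (joint fit) and 14 to 79 with 1 library left out, and those between PKI and Gnas-eKO from 1564 to 2389 (DESeq2), 925 (replicate block) and 673 to 2512.

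The replicate block turned Igfbp3 in PKI to 0.16 and the Insr difference between Gnas-eKO and SmoM2 to -0.037. Leaving out 1 library spanned -0.24 to 0.0027 for Igfbp3 in SmoM2 and -0.31 to 0.20 in PKI. Of the differences, it spanned -0.045 to 0.094 (Insr) and -0.61 to 0.10 (Igfbp2) between Gnas-eKO and SmoM2, -0.22 to 0.29 (Igfbp3) between PKI and SmoM2, and -0.75 to 0.0010 (Igf2) between PKI and Gnas-eKO. None of the tested ones passed with all libraries. The cause was not tested.

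With 1 library left out, the log2 fold change of Igfbp2 ran from -1.90 to -1.21 in SmoM2, -1.96 to -1.63 in Gnas-eKO and -1.29 to -0.80 in PKI. Deviations of same-numbered libraries correlated at -0.15 to 0.30. The Igfbp3 share of 43.1% in Con was 44.3% with the longest transcript as length.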
